A study of Rattus norvegicus with 9 samples.

Results

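The colony-stimulating factors are secreted proteins that keep myeloid cells alive and make them divide and mature. Csf1 (M-CSF) and Il34 act through the receptor tyrosine kinase Csf1r, on which macrophages depend. Csf2 (GM-CSF) binds the alpha chain Csf2ra and signals through the beta common chain Csf2rb, which the IL-3 and IL-5 receptors share, and Csf3 (G-CSF) acts on neutrophils and their precursors through Csf3r. The 4 factors and 4 receptor chains were taken by symbol from a table of 20442 genes, and all 8 were found. Levels are FPKM, the fragments of a gene scaled by its length and by the assigned reads of the library. This lets genes of different length be set side by side, as far as the lengths used are right. The lengths that the values imply ran from 441 bases for Csf2 to 6192 bases for Il34.

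The cells were primary rat bone marrow-derived dendritic cells (BMDC) of wild-type genotype. Every culture was kept in medium with 10% serum, GM-CSF at 20 ng/mL and IL-4 at 20 ng/mL, so the Control cultures also received the protein that Csf2 encodes. Control cultures (n = 3) are labelled as having had no treatment, LPS cultures (n = 3) as treated with lipopolysaccharide, the bacterial endotoxin, and LPS+EVs cultures (n = 3) as treated with LPS and with extracellular vesicles derived from ASC. The protocol, which has the same text for all samples, gives LPS at 1 µg/mL, a further agent at 50 ng/mL that it does not name, and 24 h. The dose of the vesicles is not known here, nor whether the unnamed agent is the vesicles. If that agent was given with LPS, the effects of the agent and of LPS cannot be told apart in comparisons with Control. Replicates are labelled as biological, with no statement that each is its own animal, and p-values therefore measure the spread between these libraries.

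Between 32148519 and 39407116 reads per library were assigned to genes, and 3 reads in a gene of 1 kb, the limit that a count of 0 allows, came to 0.0761 to 0.0933 FPKM (counting error only). The library numbered 2 stood apart from the others in each group, on a component with 21% of the variance. Across all 11141 genes tested the median log2 difference was -0.186 for LPS against Control and -0.194 for LPS+EVs against Control, against -0.003 and -0.002 under median-of-ratios scaling. Differences below are on the log2(FPKM + 1) scale of the deposited values. Of 10 markers of conventional dendritic cells, Flt3, Xcr1, Clec9a and Dpp4 were under 1 FPKM in all 9 libraries. The other 6 were expressed, among them Ccr7, Fscn1, Batf3, Cd1d1, Itgax (CD11c) at 29.8 to 52 FPKM and Zbtb46 at 1.41 to 3.36 FPKM, and the 10 summed to 149 to 236 FPKM in Control, 269 to 672 in LPS and 216 to 443 in LPS+EVs. In the same order, 10 macrophage markers summed to 858 to 1020, 556 to 753 and 689 to 853 FPKM. These sums hide opposite directions. In LPS against Control, 1 of 6 tested dendritic cell markers was called higher and 1 lower, and 1 of 9 macrophage markers higher and 5 lower. Over all tested genes 12.3% were higher and 28.7% lower. From Control to LPS, Ccr7 (48.5 to 103, then 142 to 417 FPKM) and Cd68 (403 to 444, then 493 to 591) rose. Cd1d1 (10.4 to 16.3, then 5.82 to 7.18) and Mrc1 (114 to 192, then 8.7 to 10.2) fell. What part these cells have in the values below was not tested. In bulk RNA, fewer cells of a type and less RNA per cell cannot be told apart.

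RefSeq promoter sequence on build GRCr8 was at hand for 4 of the 8 genes, Csf2, Csf2ra, Csf3r and Csf1r. The 3 stretches below are shown because Csf2 had the largest difference among the members and because Csf2ra and Csf3r encode receptor chains of the 2 factors that rose most. Each runs 5′ to 3′ from 250 to 36 bases before the annotated start, in lower case, with capitals for every match to 6 motifs searched on both strands in the 250 bases before the start. The motifs were AP-1 TGANTCA, STAT TTCNNNGAA, C/EBP TTGCNNAA, the PU.1 core GAGGAA, the CK-1 core GATTCCA (from the cytokine element known in Csf2) and the NF-kB consensus.
Csf2, chr10:38889709-38889923, minus strand: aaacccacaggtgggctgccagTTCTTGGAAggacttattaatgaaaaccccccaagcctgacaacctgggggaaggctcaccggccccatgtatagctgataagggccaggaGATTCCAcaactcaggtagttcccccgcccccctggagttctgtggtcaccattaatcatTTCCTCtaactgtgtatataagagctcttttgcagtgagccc
Csf2ra, chr14:118153-118367, minus strand: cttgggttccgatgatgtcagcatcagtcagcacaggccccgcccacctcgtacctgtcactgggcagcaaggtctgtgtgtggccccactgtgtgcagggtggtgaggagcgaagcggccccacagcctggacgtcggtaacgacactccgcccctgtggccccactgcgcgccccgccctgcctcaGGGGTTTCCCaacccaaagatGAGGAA
Csf3r, chr5:143582970-143583184, plus strand: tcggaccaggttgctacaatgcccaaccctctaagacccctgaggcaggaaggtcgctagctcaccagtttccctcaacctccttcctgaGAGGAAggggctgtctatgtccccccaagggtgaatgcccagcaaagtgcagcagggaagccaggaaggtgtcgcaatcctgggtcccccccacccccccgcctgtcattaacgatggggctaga

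The Csf2 stretch held a STAT match 228 to 220 bases before the start, the CK-1 core 137 to 131 bases before it and a PU.1 core on the opposite strand 77 to 72 bases before it. The annotated start of Csf2 is the first base of an ATG. Its window may therefore not be placed at the transcription start, and the positions given for Csf2 may be shifted. The Csf2ra stretch held an NF-kB match that reads on both strands 62 to 53 bases before the start and a PU.1 core 41 to 36 bases before it, and Csf3r held a PU.1 core 160 to 155 bases before its start. Csf1r held 2 PU.1 cores on the opposite strand. Of 33469 promoters, 23.3% held a PU.1 core in the same window, 7.67% a STAT match, 6.33% an NF-kB match and 3.16% the CK-1 core. No AP-1 or C/EBP match was found in the 4 promoters, against 6.34% and 9.22% of all promoters. A match describes letters and is no evidence of binding.

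Csf2 and Csf3 were both higher in LPS than in Control, from Control levels among the lowest of the 8. Csf2 was at 0.345, 0.55 and 1.1 FPKM in Control libraries 1, 2 and 3, at 141, 120 and 74.9 FPKM in LPS and at 224, 127 and 55.1 FPKM in LPS+EVs. Every library with LPS lay far above every Control library, and within the LPS+EVs group the values spread over a wide range. The Control values rested on 6, 8 and 19 reads, the LPS values on 2411, 1935 and 1273 reads. From a mean of 0.664 ± 0.389 FPKM (SD, n = 3) to 112 ± 33.9 FPKM, Csf2 rose 169-fold in mean FPKM, a log2 difference of 6.06 (SE 0.46, 95% interval 5.01 to 7.12, limma adjusted p = 3.62e-05). By level it stood at rank 11336 of 20442 genes in Control and at rank 625 in LPS.

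Csf3 was at 1.07, 0.191 and 1.35 FPKM in Control libraries 1, 2 and 3, at 64, 23 and 78.4 FPKM in LPS and at 42.1, 30 and 38.8 FPKM in LPS+EVs. The library numbered 2 was the lowest of its group for Csf3 in all 3 groups, and no library with LPS came near the Control values. Library 2 also had the lowest sum of 10 stromal and endothelial markers in each group. The sums in libraries 1, 2 and 3 were 352, 146 and 456 FPKM in Control, 677, 85.9 and 370 in LPS and 474, 124 and 813 in LPS+EVs. Libraries 1 and 3 stood in the other order for Csf3 in LPS and in LPS+EVs. The part of such cells in the Csf3 and Csf1 values was not tested. The mean rose from 0.869 ± 0.604 to 55.1 ± 28.7 FPKM (SD, n = 3), which is 63.4-fold, with a log2 difference of 4.80 (SE 0.44, 95% interval 3.80 to 5.79, limma adjusted p = 9.33e-05). Its rank by level went from 11003 to 1299. The added value of 1 FPKM understates such changes: with 0.1 in its place the log2 differences were 7.27 for Csf2 and 5.95 for Csf3.

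Csf1, the macrophage factor, was already abundant without LPS and rose less. Its levels were 24.3, 43.5 and 29.9 FPKM in Control libraries 1, 2 and 3, 75.9, 41.3 and 69.6 FPKM in LPS and 58.7, 41.5 and 54.1 FPKM in LPS+EVs. The groups overlapped through the libraries numbered 2, which sat between 41.3 and 43.5 FPKM in all 3 groups. Mean Csf1 went from 32.6 ± 9.87 to 62.3 ± 18.4 FPKM (SD, n = 3), 1.91-fold, with a log2 difference of 0.91 (SE 0.28, 95% interval 0.28 to 1.54, limma adjusted p = 0.0296). The call was lost without Control library 1 (adjusted p = 0.105), Control library 3 (0.0825), LPS library 1 (0.0951) or LPS library 3 (0.079), and with the libraries numbered 1 and 3 alone the difference was 1.40. A gene model of no assigned name overlaps Csf1, and the strand of the counting is not stated, so reads of the pair may not be separable.

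Il34, the other ligand of Csf1r, was scarce throughout and stayed under the filter of 1 FPKM in 3 libraries, so it was not tested. It was at 0.537, 0.235 and 0.309 FPKM in Control libraries 1, 2 and 3, at 0.167, 0.0308 and 0.268 FPKM in LPS and at 0.0837, 0.0978 and 0.201 FPKM in LPS+EVs. The values rested on 7 to 131 reads, and they overlapped between Control and LPS but not between Control and LPS+EVs. In a fit without the filter its log2 difference was -0.23 for LPS against Control (adjusted p = 0.156) and -0.27 for LPS+EVs against Control (adjusted p = 0.104). Its gene model also overlaps others, among them Rpl29l3.

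**Figure D1:**
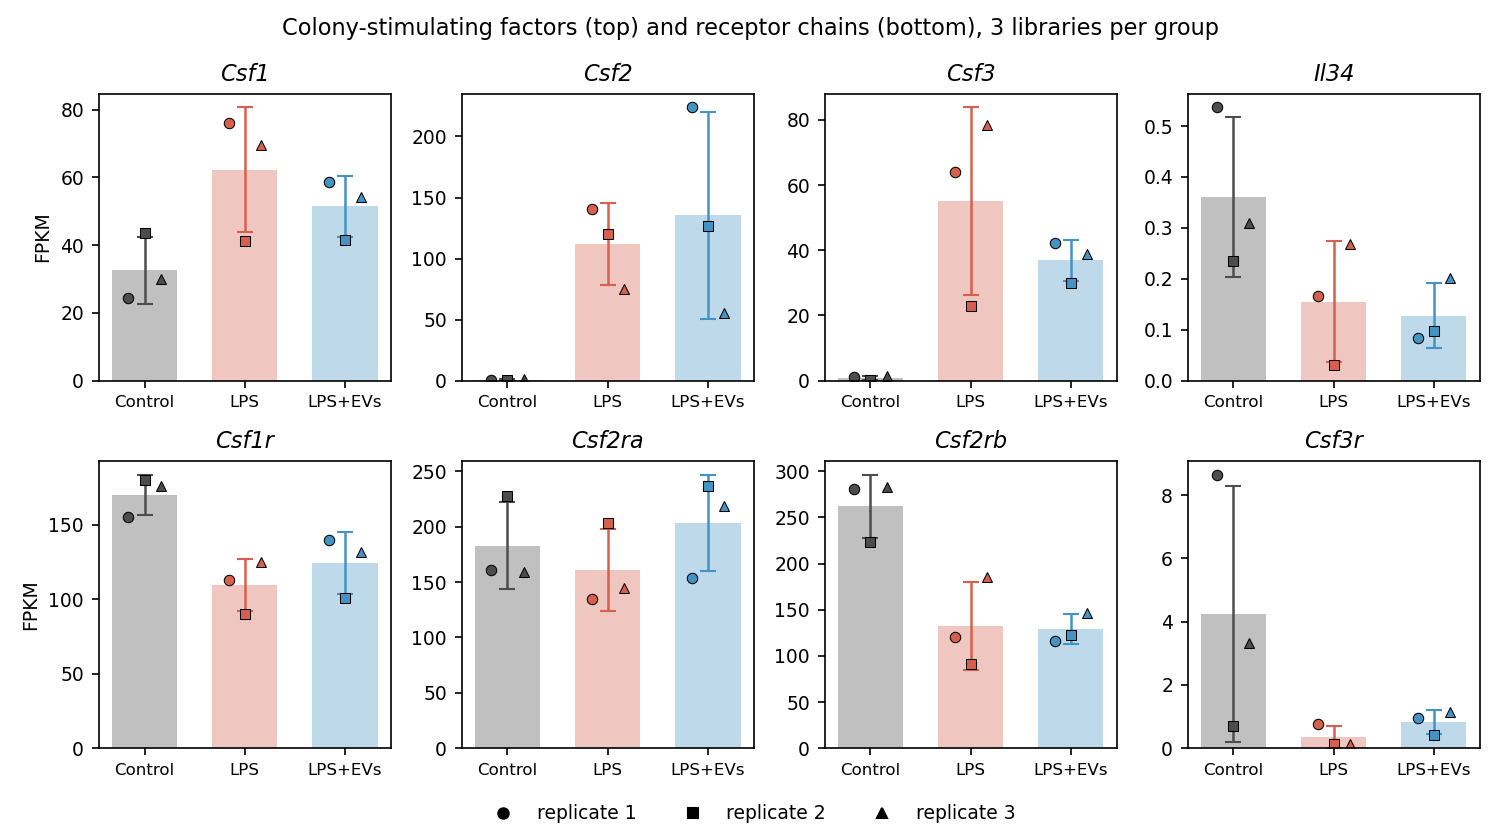
FPKM of the 4 factors (top row) and the 4 receptor chains (bottom row) in Control, LPS and LPS+EVs. Bars are group means, error bars 1 SD, and the marker shapes the library numbers 1, 2 and 3 (n = 3 per group); the scales start at 0 and differ between panels. Csf2 and Csf3 bars are near 0 in Control, and Csf2rb and Csf1r points are all higher in Control than in the other groups.

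Of the 7 members tested, 3 ligands were higher in LPS than in Control (Csf1, Csf2, Csf3), 3 receptor chains were lower (Csf1r, Csf2rb, Csf3r) and Csf2ra was not called. Of all 11141 tested genes, 41% were called in this comparison, 12.3% as higher (1368 genes) and 28.7% as lower (3201 genes). Under median-of-ratios scaling 1893 genes were higher and 2332 lower. Of the 7, 4 had no overlap between groups, against 55.1% of all tested genes. The filter lets in a gene such as Csf2 through the groups where it is high, so these counts describe the members and support nothing further.

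Csf1r, the receptor for M-CSF and IL-34, fell in LPS. It was at 155, 180 and 176 FPKM in Control libraries 1, 2 and 3, at 113, 90.4 and 125 FPKM in LPS and at 140, 101 and 132 FPKM in LPS+EVs. All Control libraries were higher than all others, and the LPS and LPS+EVs ranges overlapped. The LPS mean of 109 ± 17.5 FPKM was 1.56-fold under the Control mean of 171 ± 13.3 FPKM (SD, n = 3), with a log2 difference of -0.64 (SE 0.16, 95% interval -1.02 to -0.27, limma adjusted p = 0.014). Under median-of-ratios scaling the difference was -0.43 (adjusted p = 0.0267).

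Of the GM-CSF receptor chains, the beta chain Csf2rb fell in LPS, and the alpha chain Csf2ra was not called. Csf2rb was at 281, 223 and 283 FPKM in Control libraries 1, 2 and 3, at 121, 91.7 and 185 FPKM in LPS and at 116, 123 and 147 FPKM in LPS+EVs. Its Control libraries lay above all 6 others. From 262 ± 34.2 to 132 ± 47.4 FPKM (SD, n = 3) it fell 1.98-fold in LPS, a log2 difference of -1.03 (SE 0.24, 95% interval -1.57 to -0.49, limma adjusted p = 0.00934). Csf2ra was at 161, 228 and 159 FPKM in Control, at 135, 203 and 145 FPKM in LPS and at 154, 237 and 219 FPKM in LPS+EVs, with overlap between all groups. Its log2 difference in LPS against Control was -0.18 (SE 0.23, 95% interval -0.70 to 0.34, limma adjusted p = 0.544), and 0.03 under median-of-ratios scaling, so its direction depended on the scaling.

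Because both chains come from the same libraries, their ratio does not depend on the scaling between libraries. Csf2rb over Csf2ra was 1.75, 0.974 and 1.78 in Control libraries 1, 2 and 3, 0.9, 0.451 and 1.27 in LPS and 0.757, 0.519 and 0.672 in LPS+EVs. The library numbered 2 had the lowest ratio and the highest Csf2ra of its group each time. The log2 ratio differed by -0.85 between LPS and Control (exact permutation test, two-sided p = 0.2), with overlapping groups, and was lower in LPS for each of the 3 library numbers (-0.96, -1.11 and -0.48). Between LPS+EVs and Control it differed by -1.17 with no overlap, also lower for each number (exact permutation p = 0.1, the smallest that 3 against 3 allows), and between LPS+EVs and LPS by -0.32 (exact permutation p = 0.5). Of the 3 ratio differences none passed a threshold of 0.05, which this exact test of 3 against 3, run without the pairing, cannot reach.

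**Figure D2:**
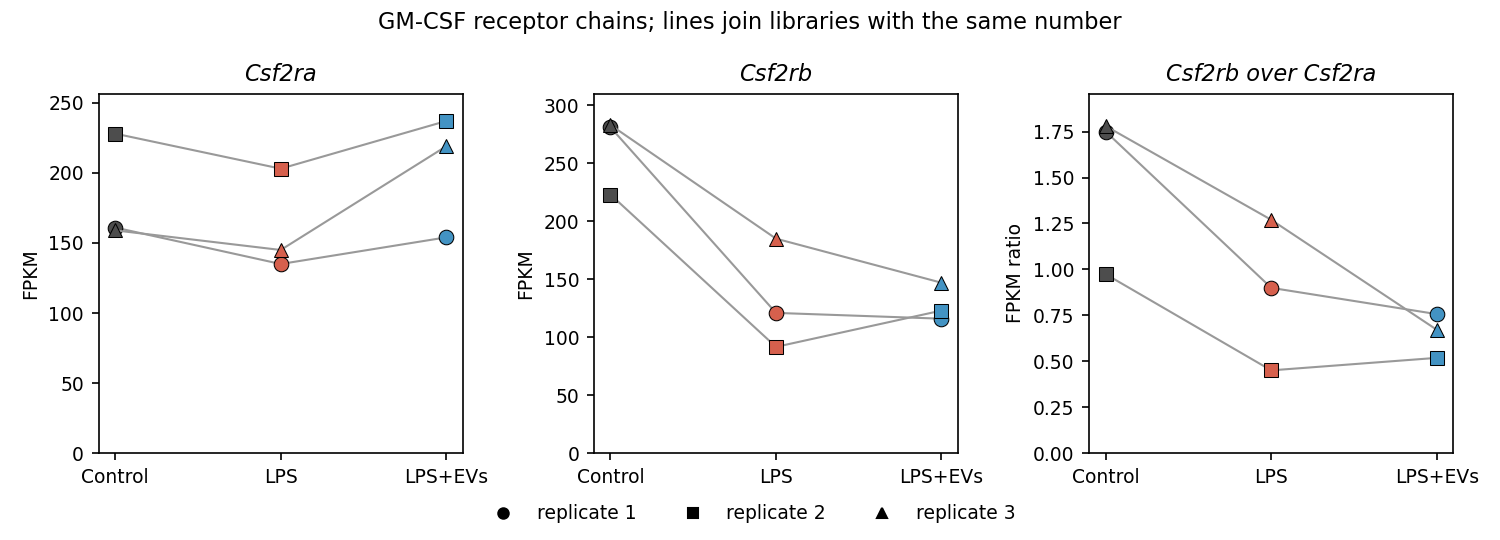
FPKM of Csf2ra (left) and Csf2rb (middle) and their FPKM ratio Csf2rb over Csf2ra (right), all on linear axes from 0, in Control, LPS and LPS+EVs (n = 3 each). Lines join libraries with the same number; the Csf2rb line falls from Control to LPS for each number, while Csf2ra of library 2 is the highest in each group.

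Csf3r, the receptor for G-CSF and a gene of neutrophils and their precursors, was low and uneven. It was at 8.65, 0.698 and 3.34 FPKM in Control libraries 1, 2 and 3, at 0.752, 0.145 and 0.118 FPKM in LPS and at 0.949, 0.41 and 1.14 FPKM in LPS+EVs. Control library 2 fell inside the range of the other groups, and the gene passed the filter through Control libraries 1 and 3 and LPS+EVs library 3. The log2 difference in LPS against Control was -1.66 (SE 0.54, 95% interval -2.89 to -0.43, limma adjusted p = 0.0371). That call was lost without any one of Control libraries 1 and 3 and LPS libraries 1, 2 and 3 (adjusted p = 0.0515 to 0.0927), without the filter (0.083), in the 6 compared libraries alone (0.0701) and in limma-voom on recovered reads (0.0748). The difference was -1.05 without Control library 1 and -2.31 without Control library 2. With the replicate number as a block the call held (adjusted p = 0.00695).

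Among the Control libraries, the summed level of neutrophil genes was in the order of Csf3r, though not every gene of the list was. The 10 neutrophil and granulocyte markers found in the table summed to 263, 31.6 and 128 FPKM in Control libraries 1, 2 and 3, to 6.88, 2.17 and 3.65 FPKM in LPS and to 8.89, 4.27 and 17.8 FPKM in LPS+EVs. Control library 2 had the lowest sum of its group, as it had the lowest Csf3r. S100a8, a calcium-binding protein abundant in neutrophils and monocytes, was at 187, 6.75 and 81.6 FPKM in Control libraries 1, 2 and 3, and gave most of the sum in libraries 1 and 3. The granule genes Mpo, Elane, Prtn3, Ngp and Ltf were under 1 FPKM in all 9 libraries, and none of the 10 was at 0 in all of them. The chemokine receptor Cxcr2 was highest in Control library 2, at 18, 21.2 and 15.9 FPKM in Control, and was at most 0.512 FPKM with LPS. Ltf, at 0.0184, 0.395 and 0.203 FPKM in Control, also ran against the order of Csf3r. Of the 4 markers tested, 2 were called lower in LPS, where 28.7% of all tested genes were lower. The part of such cells in the Csf3r values was not tested.

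**Figure D3:**
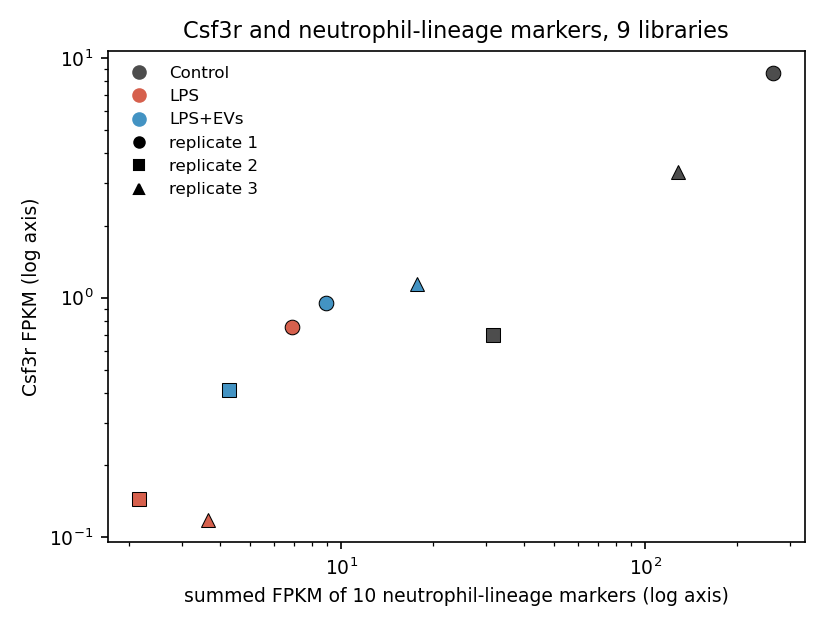
Csf3r FPKM (vertical axis, log scale) against the summed FPKM of 10 neutrophil and granulocyte markers (horizontal axis, log scale) in the 9 libraries. Colours are the groups and shapes the library numbers; Control libraries 1 and 3 lie at the upper right with marker sums of 263 and 128 FPKM, and the points share their libraries, so no test is given.

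In Control, the receptor chains Csf2rb, Csf2ra and Csf1r had the highest mean FPKM of the members, with overlapping ranges, followed without overlap by Csf1 and then Csf3r. Csf3, Csf2 and Il34 came last by mean, and from Csf3r on each range overlapped the next. In LPS, the levels of Csf2ra, Csf2rb, Csf2 and Csf1r followed each other with overlapping ranges. The mean of Csf2 was below those of both its receptor chains. By library, Csf2 was above both chains in LPS library 1, between them in library 2 and below both in library 3. Csf1 and Csf3 came next and overlapped, and Csf3r and Il34 were lowest. The order in LPS+EVs was Csf2ra, Csf2, Csf2rb and Csf1r with overlapping neighbours, then Csf1 and Csf3, then Csf3r and, without overlap, Il34.

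Whether the vesicles altered these genes in cells given LPS is what LPS+EVs against LPS asks. None of the 7 members was called, and none of the 11141 tested genes passed (0% by limma with adjustment); 295 genes (2.65%) had an unadjusted p under 0.05, and limma-voom called 0 with 254 at that unadjusted level. All 7 members had an adjusted p of 0.999 and overlapping groups, where 6.62% of all tested genes had no overlap. Without LPS library 2, a single gene of the whole table passed, the unnamed model LOC120098595, singled out after its value was seen (log2 difference 1.74, adjusted p = 0.0417). The number of genes with an unadjusted limma p under 0.05 depended strongly on the libraries and on the fit. It was 1886 without LPS library 2, 81 without LPS library 3, 80 without LPS+EVs library 3 and 600 with the replicate block.

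The 95% intervals show how large a difference the 3 libraries per group leave possible in the fit without the replicate block. For Csf2 the log2 difference was 0.10 (interval -0.95 to 1.16), and it was -0.37 without LPS+EVs library 1 and -0.16 without LPS library 3. Without LPS+EVs library 3 it was 0.64, and without LPS library 1 it was 0.29. For Csf3 it was -0.41 (-1.40 to 0.59), moving to -0.93 without LPS library 2 and to -0.07 without LPS library 3. For Csf1 it was -0.24 (-0.87 to 0.39), moving to -0.51 without LPS library 2 and to -0.07 without LPS library 1. These 3 intervals hold falls and rises alike. Among the receptor chains, Csf1r differed by 0.18 (-0.19 to 0.55), Csf2ra by 0.33 (-0.19 to 0.85), Csf2rb by 0.01 (-0.53 to 0.55) and Csf3r by 0.46 (-0.76 to 1.69). Csf1r, Csf2ra and Csf3r were each higher in LPS+EVs for all 3 library numbers, by 0.08 to 0.30 for Csf1r and by 0.19 to 0.59 for Csf2ra, without passing the test. With the replicate block the adjusted p of the members was 0.776 to 0.996. The SE went from 0.23 to 0.12 for Csf2ra and from 0.44 to 0.23 for Csf3, and stayed at 0.28 for Csf1. The intervals above, which leave out the pairing, are therefore wider than the blocked fit would give for some members.

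**Figure D4:**
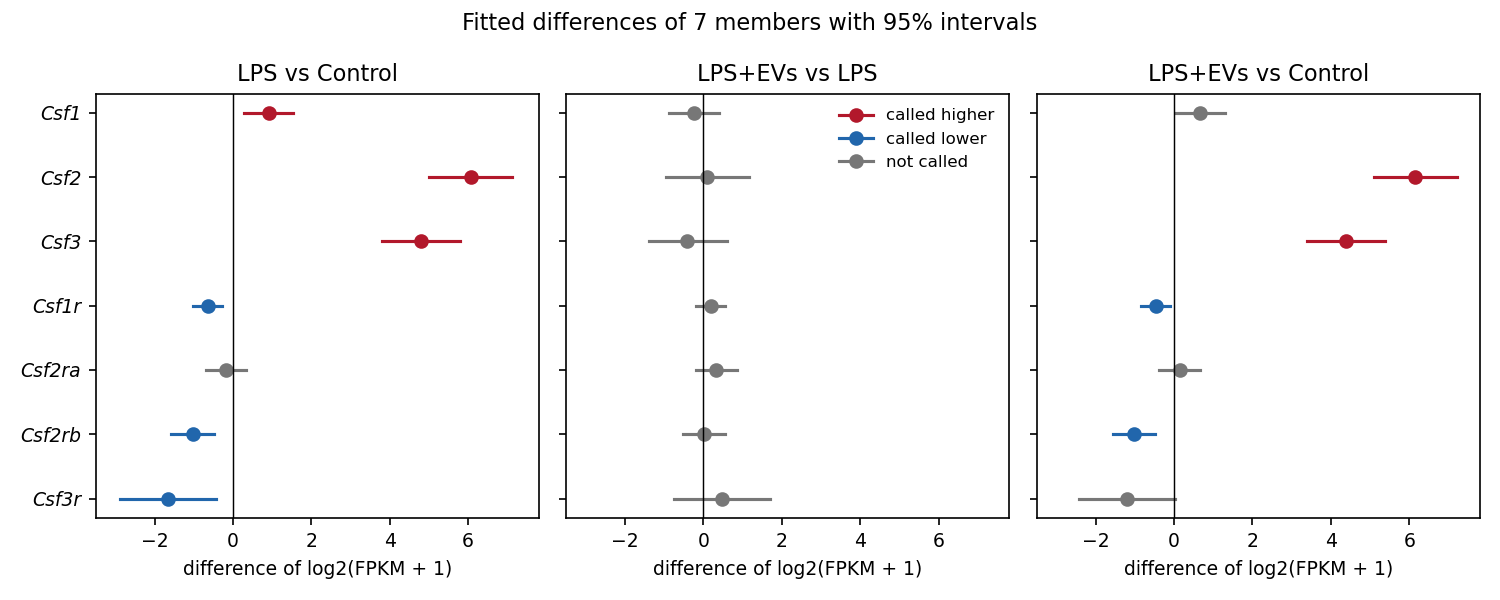
Fitted differences of log2(FPKM + 1) for the 7 tested members in LPS vs Control, LPS+EVs vs LPS and LPS+EVs vs Control (horizontal axis), with 95% intervals from limma. The intervals are from the fit without the replicate block. Red marks called higher, blue called lower and grey not called; all 7 intervals in the middle panel cross 0, while Csf2 and Csf3 lie above 3 in the outer panels.

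Set against Control, LPS+EVs libraries gave the 2 largest rises for Csf2 and Csf3 again. This comparison shares its Control libraries with the one above, so it is no separate evidence. Of the 7 members, 2 were called higher and 2 lower, and 4 had no overlap (60.2% of all tested genes had none). In the same comparison, 44.3% of all tested genes were called, 13.5% as higher and 30.8% as lower. Csf2 was 204-fold higher in mean FPKM, at 135 ± 84.6 FPKM (SD, n = 3), with a log2 difference of 6.16 (SE 0.46, limma adjusted p = 3.19e-05). Csf3 was 42.5-fold higher, at 36.9 ± 6.26 FPKM, with a log2 difference of 4.39 (SE 0.44, limma adjusted p = 0.000149). Csf2rb, at 129 ± 16.1 FPKM, fell by 1.02 on the log2 scale (SE 0.24, limma adjusted p = 0.00891).

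The calls of Csf1r, Csf1 and Csf3r in LPS+EVs against Control depended on the processing. Csf1r fell by 0.46 (SE 0.16, limma adjusted p = 0.0464) with no overlap. This call was lost under median-of-ratios scaling (-0.24, adjusted p = 0.162) and without any one of Control libraries 1, 2 and 3 and LPS+EVs libraries 2 and 3 (adjusted p = 0.0636 to 0.148). Csf1, at 51.4 ± 8.91 FPKM, was not called (0.67, SE 0.28, limma adjusted p = 0.0797), but it was under median-of-ratios scaling (0.89, adjusted p = 0.0173) and without Control library 2 (adjusted p = 0.0395). Csf3r had a log2 difference of -1.20 (SE 0.54, limma adjusted p = 0.102), and was called with the replicate block (adjusted p = 0.0256) and without Control library 2 (adjusted p = 0.00878). Csf2ra differed by 0.15 (SE 0.23, limma adjusted p = 0.628) and was called higher in 1 of the settings tried, block and median-of-ratios scaling combined (0.37, adjusted p = 0.0347).

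Of 22 genes that carry the signal of these receptors, 2 rose and 7 fell in LPS, shares near the 12.3% and 28.7% of all tested genes. Their median log2 difference was -0.26, against -0.19 for all tested genes. Syk, a kinase downstream of receptors with activation motifs, fell by 1.10 from 54.1 ± 2.04 to 24.7 ± 1.97 FPKM (limma adjusted p = 0.000193), and Pik3cd, a catalytic subunit of PI3K, fell by 2.43 from 42.8 to 7.75 FPKM. The adaptor Shc1 fell by 0.81 from 94.2 to 53.1 FPKM. In LPS+EVs against Control 1 signalling gene rose, the adaptor Gab2 (0.91, limma adjusted p = 0.00062), and 9 fell, Syk and Shc1 among them, where 13.5% of all tested genes rose and 30.8% fell. The number of falls ranged from 5 to 10 over the alternatives. Gab2 was also called higher in LPS against Control (0.68, limma adjusted p = 0.00246). In LPS+EVs against LPS it was not called (0.23, limma adjusted p = 0.999), though its groups did not overlap.

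Of 12 negative regulators, 2 rose and 4 fell in LPS, close to the 12.3% and 28.7% of all tested genes, with a median of -0.39. Ptpn6, the phosphatase SHP-1 that dampens receptor signalling in blood cells, fell by 1.90 from 142 ± 18.7 to 37.2 ± 3.63 FPKM (SD, n = 3, limma adjusted p = 4.54e-05). The adaptor Sla, which promotes receptor turnover, fell by 2.30 from 64.8 to 12.6 FPKM. Socs3, the feedback inhibitor of the G-CSF and IL-6 receptors, went the other way and rose by 1.64 from 42.1 ± 13 to 129 ± 17.2 FPKM (limma adjusted p = 0.00209). The falls numbered 2 under median-of-ratios scaling.

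Of 13 genes known as targets of GM-CSF and STAT5, 4 rose and 4 fell in LPS (12.3% and 28.7% over all tested genes), with a median of 0.29 where that of all tested genes was -0.19. Those with the smallest adjusted p had different roles: Myc, a driver of growth, fell by 3.07 from 59.9 ± 3.16 to 6.31 ± 1.1 FPKM (limma adjusted p = 1.78e-05), while the survival genes Mcl1 and Bcl2l1 rose by 0.83 and 0.93. The other called genes of this list also went in both directions. Without any one Control library the falls numbered 2. In LPS+EVs the Myc level was 7.63 ± 2.6 FPKM, that of Mcl1 60 ± 1.7 FPKM and that of Bcl2l1 30.6 ± 5.28 FPKM, with the same counts of 4 and 4 against Control (13.5% and 30.8% over all tested genes).

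Among 15 tested transcription factors known to act on the genes of the factors, 5 rose and 1 fell in LPS, where 12.3% of all tested genes rose and 28.7% fell, and the median was 0.32 against -0.19 over all tested genes. Nfkbiz, an NF-kB cofactor, rose by 1.93 from 7.27 ± 1.05 to 31.1 ± 8.74 FPKM (limma adjusted p = 0.000471), and the AP-1 subunit Fosl1 rose by 2.01 from 1.77 to 12.1 FPKM. Cebpd fell by 1.42 from 26.3 to 9.1 FPKM. The number of rises ranged from 2 to 9 over the alternatives. Cebpb, a C/EBP factor of myeloid cells, rose by 0.68 in LPS from 233 ± 46.3 to 379 ± 103 FPKM (limma adjusted p = 0.0402), with overlapping groups. That call was lost in some alternatives (adjusted p up to 0.134). Cebpb was also called in LPS+EVs against Control (1.08, 488 ± 62.5 FPKM, limma adjusted p = 0.00563), but not in LPS+EVs against LPS (0.39, limma adjusted p = 0.999).

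Of 9 genes that act on the decay or stability of such cytokine transcripts, 2 rose and 2 fell, in LPS and in LPS+EVs against Control alike, near the 41% and 44.3% of all tested genes called in either direction. Zc3h12a, the RNase Regnase-1, rose by 1.92 from 19.8 ± 2.6 to 78.5 ± 17.6 FPKM (limma adjusted p = 0.000142), while Zfp36l2, which binds AU-rich elements, fell by 1.22 from 57.6 to 24.1 FPKM. Hnrnpd, which binds the same elements, fell by 0.58 from 79.4 to 52.9 FPKM.

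Several factors known to transcribe the receptor genes were lower. Of 9 tested, 0 rose and 5 fell in LPS, beside 12.3% and 28.7% of all tested genes, and the median was -0.85 against -0.19. Spi1, which encodes the myeloid factor PU.1, fell by 0.88 from 86.3 ± 10.9 to 46.6 ± 6.23 FPKM (SD, n = 3, limma adjusted p = 0.00209). Runx1 fell by 1.09 from 21.2 ± 0.675 to 9.78 ± 3.36 FPKM, and Fli1 by 0.85 from 5.49 to 2.62 FPKM. The falls numbered 3 without Control library 1 or Control library 3. In LPS+EVs against Control again 5 fell, where 30.8% of all tested genes fell, with a median of -0.93 against -0.19. The part of these factors in the receptor values was not tested.

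Sdc1, a syndecan that binds IL-34, rose in LPS by 2.56 from 28.2 ± 6.14 to 168 ± 5.65 FPKM (limma adjusted p = 1.44e-05), the only one called of 6 tested genes for shedding and ligand release (12.3% of all tested genes rose). The sheddase Adam10 was called lower in LPS+EVs against Control (-0.44, limma adjusted p = 0.0474), a call lost without Control library 1 (0.149) or 3 (0.139) or any one LPS+EVs library (0.0718 to 0.14). Of 10 other haematopoietic growth factor and receptor genes tested, 2 rose and 1 fell, with 12.3% and 28.7% over all tested genes: the IL-7 receptor chain Il7r rose by 1.54 from 47.7 ± 10.7 to 145 ± 52.9 FPKM, Vegfa rose from 23.9 to 98.1 FPKM, and Hgf fell by 0.91 from 2.97 to 1.13 FPKM. The Hgf call was lost without Control library 1 (adjusted p = 0.07) or 3 (0.082) or LPS library 2 (0.0527). Il7r was lower in LPS+EVs than in LPS with no overlap, at 83.8 ± 10.1 FPKM, but did not pass (log2 difference -0.73, limma adjusted p = 0.999). Its call against Control in LPS+EVs (0.81, limma adjusted p = 0.0315) was lost without Control library 1 (0.11) or 2 (0.0759) or LPS+EVs library 1 (0.0722) or 2 (0.0927).

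Of the other chains that pair with Csf2rb, Il3ra was measured at a Control mean of 16.9 ± 2.4 FPKM, an LPS mean of 13.6 ± 3.51 FPKM and an LPS+EVs mean of 17.1 ± 5.82 FPKM, and was not called (-0.32 for LPS against Control, limma adjusted p = 0.382). Il3, Il5 and Il5ra stayed at or under 0.0469, 0.065 and 0.0246 FPKM in every library. In LPS+EVs against LPS, none of the genes of these lists was called. The smallest p of its list belonged to Tyrobp (0.31), Ptpn6 (0.34), Pim1 (0.56), Fosl1 (-0.81), Rc3h1 (-0.31), Cebpa (0.28), Adam17 (-0.11), Il7r and Il3ra (0.28), each with an adjusted p of 0.999. These genes were picked by their p in this comparison, so that Ptpn6, Cebpa and Il7r showed no overlap is a description only.

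**Figure D5:**
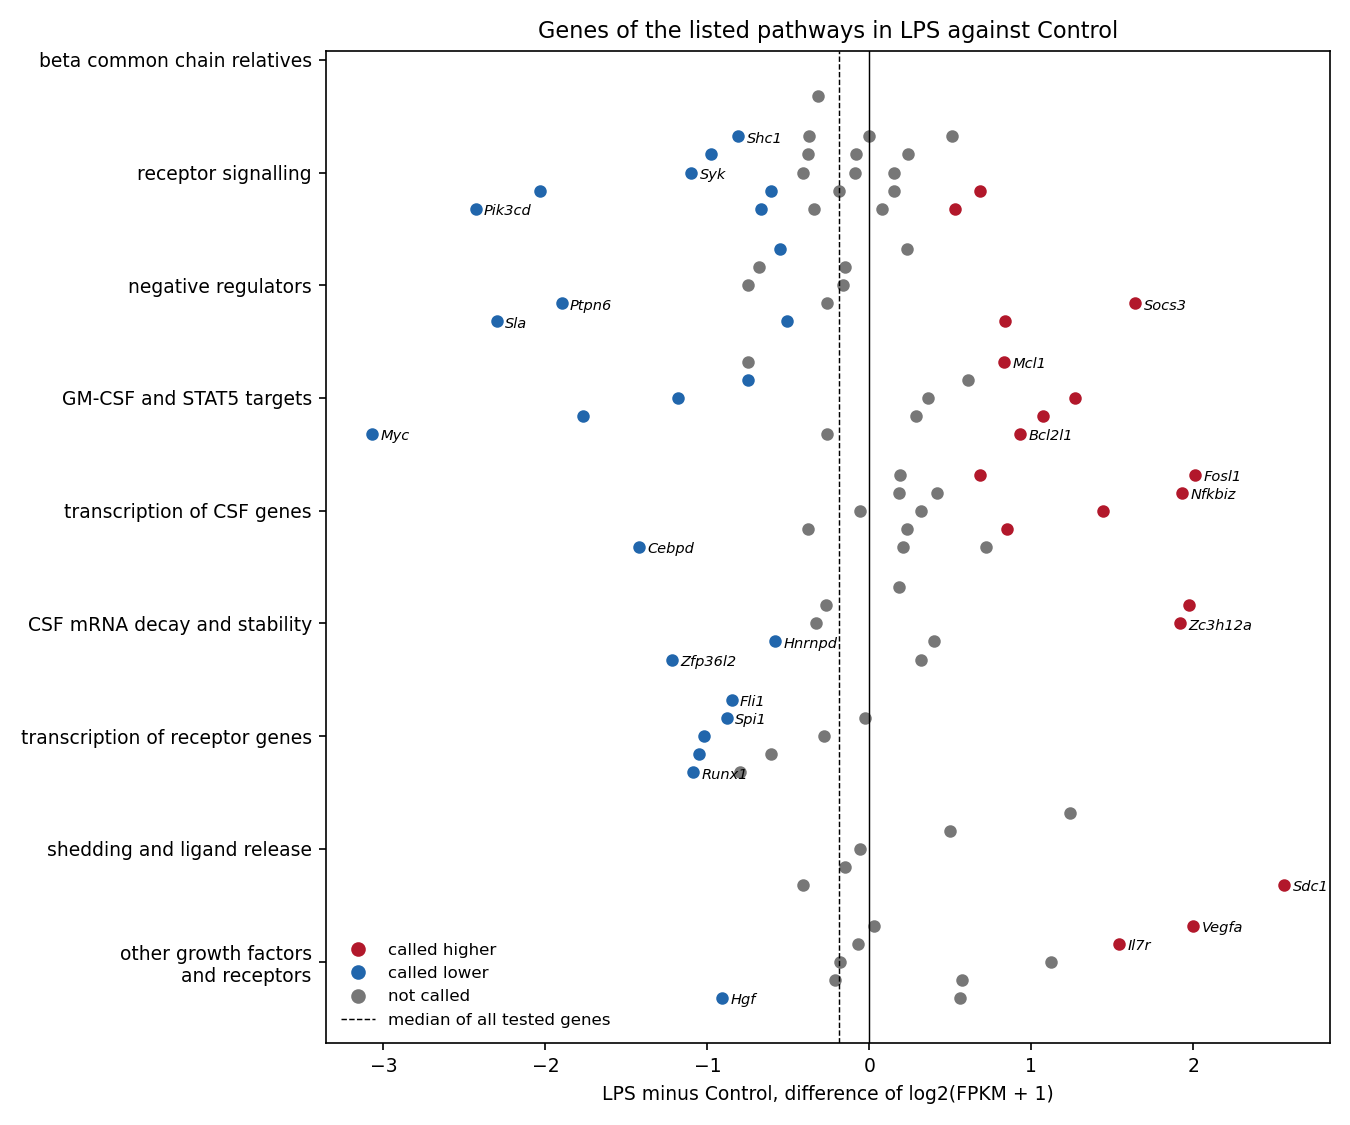
Difference of log2(FPKM + 1) between LPS and Control (horizontal axis) for each tested gene of 9 lists (rows; points are spread vertically within a row only for legibility). Red marks called higher, blue called lower and grey not called, the dashed line is the median of all tested genes at -0.19, and the row of receptor gene transcription has 5 blue points and no red one.

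The genes most like each member over the 9 libraries were found by the mean absolute difference of log2(FPKM + 1) profiles, each centred on its own mean. Il1b and Ifit3 were nearest to Csf2, at 0.50 and 0.66, and Il1b went from a mean of 60.8 FPKM in Control to 2890 FPKM in LPS and 3501 FPKM in LPS+EVs. The chemokine Cxcl1 (0.23) and Lcn2 (0.30) were nearest to Csf3, with Cxcl1 at 11, 433 and 290 FPKM in the same order. For Csf1 they were Plekhn1 (0.13) and Sntb1 (0.14), for Csf1r Dennd4b (0.07) and Disc1 (0.07), for Csf2ra Naip6 (0.10) and Inppl1 (0.10), and for Csf2rb Runx1 (0.10) and Pspc1 (0.10). Fads1 (0.19) and Naaa (0.22) were nearest to Csf3r. The distances for Csf2 are larger than those for the other members. The measure is not scaled to the size of a gene's changes, and Csf2 changed most. It therefore cannot tell whether neighbours follow Csf2 less closely than those of other members. In a profile of 9 libraries the difference between Control and the rest weighs heavily, and likeness says nothing of shared function.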

How the data were processed

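RNA sequencing libraries of 9 samples were grouped by their labels into Control, LPS and LPS+EVs, 3 each. Tools named are fastp, HISAT2, HTSeq and R 3.2.0, with build mRatBN7.2, per the submitters' processing notes; their settings are not given in the sources used here. The deposited table holds FPKM made by the authors, scaled to assigned reads. Steps of the FPKM gave back whole reads, within 0.002 reads, for 18833 of 18833 genes seen in at least 2 libraries (100%). For a gene seen in only 2 or 3 libraries such a match can be found for nearly any values, so the 100% is no check of those genes. Reads are recovered only up to a factor shared by all libraries of a gene. The recovered reads gave the depths and the limma-voom alternative, in which 1927 genes were called higher and 2345 lower for LPS against Control.

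The 11141 genes that reached 1 FPKM in 3 or more libraries were fitted with limma 3.58.1 (limma-trend, R 4.3.3) on log2(FPKM + 1), a scale that understates changes of low genes, with 1 mean per group over all 9 libraries. Tests are two-sided, p-values were adjusted by Benjamini-Hochberg over all tested genes within a comparison, and the threshold was 0.05. The fit was tested on simulated data. Python 3.11.15 with pandas 2.3.3, numpy 2.4.6, scipy 1.17.1 and matplotlib 3.10.9 did the rest.

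The members and lists were chosen with earlier results of these data known. Named genes are all 8 members, up to 3 genes per list with the smallest adjusted p under 0.05 in a comparison (or, with none, the 1 with the smallest), and the 2 genes with full symbols most like each tested member. Marker lists covered macrophages, conventional dendritic cells, neutrophils, T and NK cells (sums at most 2.02 FPKM), B cells (at most 0.222), mast cells, basophils and eosinophils (at most 1.52) and stromal and endothelial cells (85.9 to 813 FPKM). Of the stromal and endothelial list, 0 of 8 tested genes were called in any comparison. Over all tested genes 41% were called in LPS against Control and 44.3% in LPS+EVs against Control. Whether numbers pair the libraries was checked on residuals from the group means: those of the same number correlated at 0.284 to 0.863 over 9 pairs and those with different numbers at -0.745 to 0.426, so the numbers were taken to pair the libraries, and a blocked value is given where it changes a call. Alternatives were an added value of 0.1, no filter, a filter of 1 FPKM in 6 libraries, the 6 compared libraries alone, the replicate block, median-of-ratios scaling, both together, limma-voom on recovered reads and leaving out each library. Libraries numbered 1 and 3 alone were chosen after seeing the data.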

Additional observations from a re-analysis of the deposited data

How the results depend on the processing

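Calls of Csf2, Csf3 and Csf2rb in LPS against Control and in LPS+EVs against Control, and of Csf1r in LPS against Control, held under every alternative tried. The replicate block raised the calls over all tested genes to 1912 higher and 3950 lower for LPS against Control and to 1984 and 4162 for LPS+EVs against Control; it made Csf3r a call in LPS+EVs against Control as well as Fosl1 there (adjusted p = 0.013) and Tyrobp (0.0449) and Adam10 (0.0108) in LPS against Control, and changed no other call of a member or named gene. For LPS against Control the Csf1 call was also lost without the filter (0.0641) and in the 6 libraries alone (0.0521). Median-of-ratios scaling gave 1893 higher and 2332 lower for LPS against Control (deposited scaling 1368 and 3201) and 2073 and 2507 for LPS+EVs against Control (1505 and 3436); with the block as well, 2685 and 2809 genes were higher in these comparisons. In LPS+EVs against Control the members called higher numbered 4 with block and scaling together and those called lower 1 under median-of-ratios scaling, limma-voom and no filter, and 1 to 2 when a library was left out. In LPS+EVs against LPS 0 to 1 genes were higher when a library was left out. Directions that turned, the cause of which was not tested: Csf2ra for LPS against Control 0.03 under median-of-ratios scaling, with the block as well and in limma-voom; for LPS+EVs against LPS, when a library was left out, Csf2 from -0.37 to 0.64, Csf2rb from -0.22 to 0.28 and Adam17 from -0.23 to 0.00, and Csf2rb -0.19 in libraries 1 and 3 alone; and Il3ra for LPS+EVs against Control 0.18 under the same scaling settings and from -0.21 to 0.27 when a library was left out. Depth limits Il34, at 7 to 131 reads, and Csf2 in Control, at 6 to 19 reads.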
